A study of Danio rerio with 12 samples.

Results

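Regenerating hearts of mvp mutant zebrafish were compared with regenerating hearts of wild-type zebrafish at 7 days post amputation (7 dpa). The libraries were taken by their sample labels: the group mvp-7dpa has 3 RNA-seq libraries and the group WT-7dpa has 3, which together make 6 of the 12 libraries of the series. The other 6 are sham-operated hearts of both genotypes (mvp-sham and WT-sham, 3 libraries each) and are given only beside a result. All fish were adults on an AB background. The mutant fish carried a CRISPR/Cas9 deletion allele of mvp in every cell, so that no cell type can be singled out, and the wild-type fish carried none. In both 7 dpa groups the ventricular apex had been resected, and the ventricle tissue below the surgical plane was collected. According to the methods, RNA came from 9 hearts of wild-type and mutant fish, and how these hearts were divided among the libraries is not given in the sources used here. P-values therefore measure the spread between libraries, which may be technical.

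The zebrafish heart replaces lost ventricular muscle after amputation. Surviving cardiomyocytes divide, the epicardium and endocardium are activated and send signals to the muscle, and macrophages, neutrophils and other leukocytes enter and clear the wound. A fibrin and collagen matrix fills the wound at first and is later resorbed. The major vault protein, encoded by mvp, builds the shell of the vault, a large ribonucleoprotein particle of the cytoplasm. The vault also holds the telomerase-associated protein encoded by tep1, the poly(ADP-ribose) polymerase encoded by parp4 and small vault RNAs.

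The targeted gene was low in every mutant library. Reads assigned to mvp (ENSDARG00000021242) stood at 18.6, 20.1 and 21.8 counts scaled to library size (CPM) in mvp-7dpa hearts, against 211.7, 154.8 and 153.2 CPM in WT-7dpa hearts. In this and every later sentence, values are in the order of replicates 1, 2 and 3 and are scaled by the TMM method. The mvp-7dpa mean was 20.2 ± 1.57 CPM and the WT-7dpa mean was 173.2 ± 33.3 CPM (SD, n = 3 each). The reads assigned to mvp in the mutant were thus 11.6% of those in the wild type (log2 fold change -3.10, SE 0.15, adjusted p = 0.000147). The groups did not overlap (exact permutation test, two-sided, p = 0.1, the smallest p that 3 libraries against 3 allow). Sham hearts had 4.11, 4.77 and 4.40 CPM in the mutant and 161.8, 173.4 and 162.8 CPM in the wild type. The authors report that the allele lacks all of the mvp coding sequence and that mutant embryos had no mvp mRNA. Where the reads assigned to mvp in mutant hearts come from was not tested. Of the other protein genes of the vault, parp4 fell (log2 fold change -0.69, adjusted p = 0.041), with 11.6, 10.5 and 11.6 CPM in mvp-7dpa hearts and 14.3, 21.5 and 18.7 CPM in WT-7dpa hearts. The levels of tep1 overlapped between the groups, at 4.13, 4.95 and 3.99 CPM in mvp-7dpa hearts and 4.54, 4.59 and 3.66 CPM in WT-7dpa hearts.

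The libraries held 22076790 to 23430334 counts in mvp-7dpa and 21356163 to 26544507 counts in WT-7dpa, and a floor of 3 counts was worth 0.113 to 0.140 CPM. Of heart muscle genes, that of the regulatory myosin light chain, myl7, was at 19560, 19110 and 19780 CPM in mvp-7dpa hearts and 22250, 16100 and 16020 CPM in WT-7dpa hearts. The muscle gene cmlc1 was higher in the mutant, at 4440, 4415 and 4810 CPM in mvp-7dpa hearts and 3739, 3434 and 3547 CPM in WT-7dpa hearts. Its log2 fold change was 0.35 (adjusted p = 0.044, edgeR's quasi-likelihood test). Ventricular muscle was not checked by vmhc or tnnt2a, since no gene was listed under either in the table of names. One library stood apart. The biological coefficient of variation was 5.21% among the mvp-7dpa libraries and 26.4% among the WT-7dpa libraries, and 3.33% between WT-7dpa replicates 2 and 3 alone. Mitochondrially encoded genes took 10.5% to 10.6% of the counts in mvp-7dpa, 13.5% in WT-7dpa replicate 1 and 10.85% and 10.72% in WT-7dpa replicates 2 and 3. For this reason every gene family is given below against each WT-7dpa library in turn. What sets replicate 1 apart was not tested. Members of a list named beyond the 8 with its smallest p-values, such as pcna, mki67, mcm4, hbaa1, per2, nr3c1 and stat2, were chosen after their values had been seen.

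Across the transcriptome, 16012 genes were tested with edgeR's quasi-likelihood test, and a gene was called at an adjusted p-value under 0.05 (Benjamini-Hochberg). In mvp-7dpa hearts 692 genes rose (4.32% of those tested) and 684 fell (4.27%). All 3 libraries of a group lay above all 3 of the other in 2806 genes that were higher in mvp-7dpa (17.5%) and in 2691 that were lower (16.8%), and each called gene was among these. Scaled by library total alone, the split of genes with no overlap was 2172 higher and 3373 lower. The number of calls turned on the libraries: with WT-7dpa replicate 1 left out, 2937 of the 16012 genes were called higher (18.3%) and 3316 lower (20.7%), and all 1376 genes called from the 6 libraries were called again in the same direction. Sham hearts of the 2 genotypes also differed: 4993 genes had no overlap and were higher in mvp-sham (31.2%), and 5074 were lower (31.7%). With CPM rounded to 4 significant digits, so that tied values count as within the range, all mvp-7dpa libraries lay below both WT-7dpa replicates 2 and 3 in 4731 genes. For 2687 of these (56.8%) replicate 1 was above the mutant libraries as well, for 813 it was within their range and for 1231 it was below them.

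For each of 66 gene lists, the median difference in log2 CPM between the mvp-7dpa mean and each WT-7dpa library was taken over the genes tested. The wild-type libraries were said to agree where the 3 medians had the same sign and each was at least 0.1 in size. They agreed on 19 lists. The 3 medians of a list are not independent. They share the same mvp-7dpa mean, and WT-7dpa replicates 2 and 3 were close to each other (biological coefficient of variation 3.33%, against 26.4% among all 3). The 19 include 2 short lists, the vault list with 3 genes tested, mvp among them, and the liver list with 5. In 15 lists the signs were the same but at least 1 median was under 0.1, and in 32 lists the signs differed. Over all genes tested the 3 medians were 0.00, 0.00 and -0.01, and the median log2 fold change was -0.02. Beside any count of called genes in a list stand 4.32% of all genes called higher and 4.27% called lower. Of the 66 lists, 57 held at least 1 called gene. In 56 of these the number of calls was larger without WT-7dpa replicate 1, and in none was it larger without any one of the other 5 libraries. The numbers are given below for some of these lists.

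**Figure D1:**
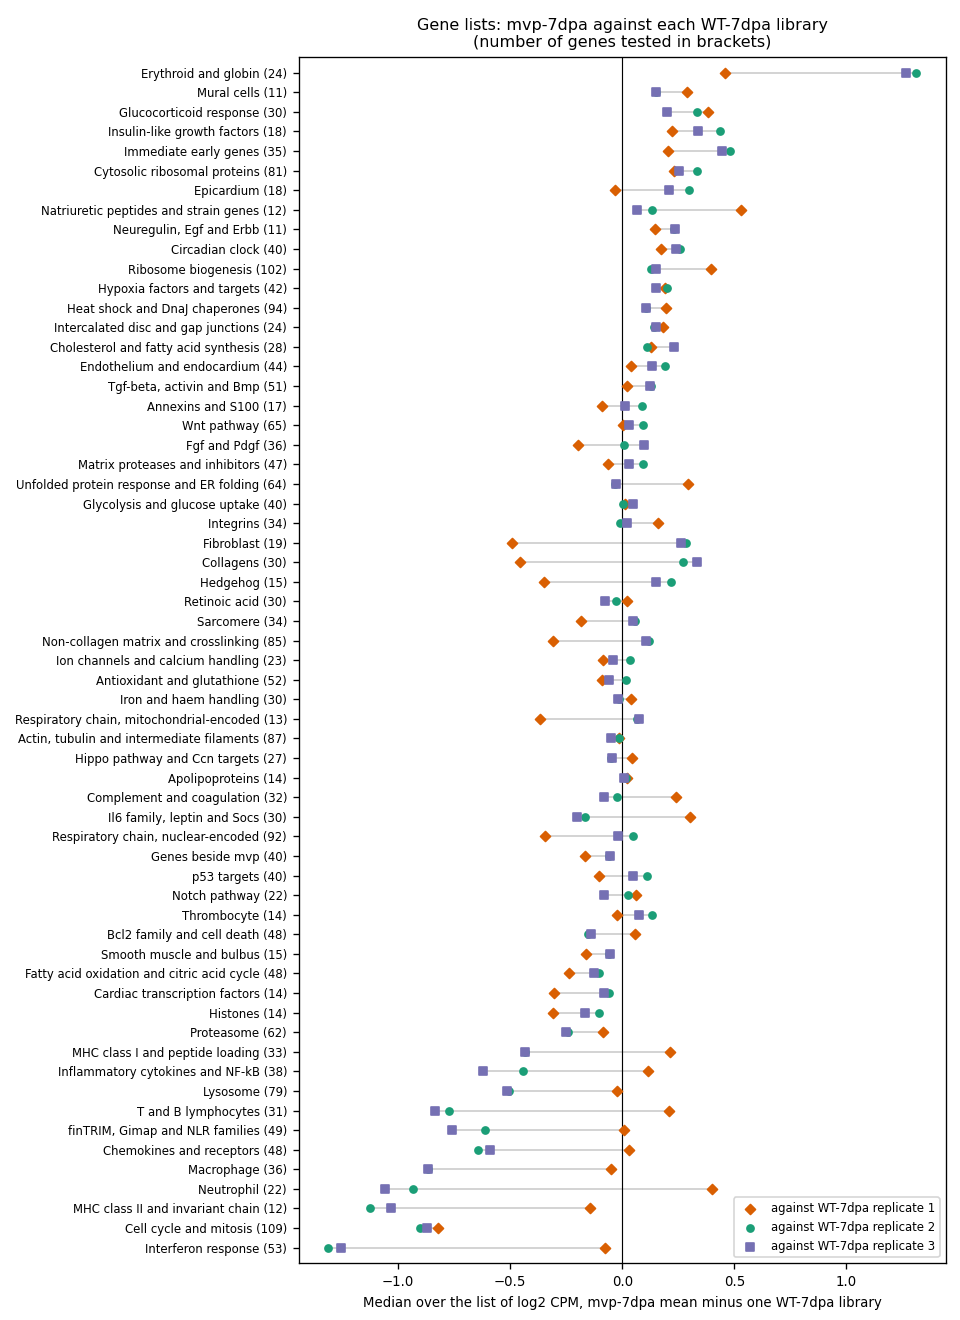
Median difference in log2 CPM of each gene list with at least 10 genes tested, between the mean of the 3 mvp-7dpa libraries and WT-7dpa replicate 1 (diamonds), replicate 2 (circles) and replicate 3 (squares), with lists ordered by their median log2 fold change. Cell cycle genes lie near -0.82 to -0.90 against all 3 libraries, whereas interferon genes lie at -0.08 against replicate 1 and at -1.31 and -1.26 against the others.

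Genes of the cell division cycle were lower in mvp-7dpa hearts than in all 3 wild-type libraries. Of 109 genes tested, 66 fell, which is 60.6% of the list beside 4.27% of all genes, and 0 rose by edgeR, with 4 higher at an unadjusted p under 0.05 and 1 higher by DESeq2. The median log2 fold change of the list was -0.97. The wild-type libraries agreed: the medians were -0.82, -0.90 and -0.87 against replicates 1, 2 and 3. All 3 mutant libraries lay below all 3 wild-type libraries in 88 genes, and above them in 4, beside 16.8% and 17.5% of all genes. Summed over the list, the level was 920, 927 and 918 CPM in mvp-7dpa hearts, against 1409, 1528 and 1497 CPM in WT-7dpa hearts. In sham hearts the median difference of the same genes was -0.19. Without WT-7dpa replicate 1, 2 or 3 the number that fell was 94, 39 and 33, and without mvp-7dpa replicate 1, 2 or 3 it was 14, 19 and 14. In bulk tissue, fewer cells of a type and less RNA per cell cannot be told apart. A list of macrophage genes summed to 1610, 1628 and 1628 CPM in mvp-7dpa hearts and to 1597, 3383 and 3415 CPM in WT-7dpa hearts, and its part in the result was not tested.

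The genes that fell came from several stages of the cycle, in a division of the list made after the values had been seen. Among 14 cyclins and cyclin-dependent kinases, 7 fell (median log2 fold change -0.71). The gene of cyclin A2, ccna2, which acts in S phase and at entry into mitosis, had 5.39, 5.97 and 5.23 CPM in mvp-7dpa hearts, against 14.4, 15.4 and 15.4 CPM in WT-7dpa hearts (log2 fold change -1.44, SE 0.11, adjusted p = 0.00073). The main mitotic kinase gene, cdk1, had 9.99, 11.9 and 10.6 CPM against 25.3, 28.8 and 29.5 CPM in WT-7dpa hearts (-1.36, SE 0.11, adjusted p = 0.0011). For both genes the 3 wild-type libraries lay close together and far above the mutant libraries. Mitotic cyclin ccnb1 fell as well (log2 fold change -1.42, adjusted p = 0.013), as did ccne1, which acts at the start of S phase (-1.02, adjusted p = 0.041). The G1 cyclin gene ccnd1 overlapped between the groups, at 21.8, 22.7 and 22.1 CPM in mvp-7dpa hearts and 15.9, 30.8 and 26.3 CPM in WT-7dpa hearts.

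Among genes of DNA replication the medians were smaller in size than among genes of mitosis, a difference that was not tested. Of 23 genes of origin licensing and the replication fork, 13 fell (median -0.63). They included the helicase subunits mcm3 (-0.71), mcm4 (-0.86) and mcm5 (-0.67), the helicase cofactors cdc45 (-1.35) and gins2 (-0.96), and the flap endonuclease gene fen1 (-0.63). The helicase gene mcm4 had 31.5, 33.9 and 32.5 CPM in mvp-7dpa hearts, against 50.8, 63.0 and 63.5 CPM in WT-7dpa hearts (SE 0.10, adjusted p = 0.0051). The sliding clamp gene pcna, a common marker of proliferating cells, did not pass the test. It had 33.3, 32.8 and 31.7 CPM in mvp-7dpa hearts, against 31.0, 48.1 and 48.2 CPM in WT-7dpa hearts, and replicate 1 lay below the mutant libraries there. Of 7 genes that supply nucleotides, 5 fell (median -0.77), among them tyms, which makes thymidylate (-1.11), and rrm1, a subunit of ribonucleotide reductase (-0.59). Among 9 genes of chromatin assembly and maintenance methylation, 4 fell (median -0.35), including chaf1a and uhrf1.

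Among mitotic genes, of 13 genes of spindle motors and microtubule regulators 10 fell (median -1.46), of 12 kinetochore and checkpoint genes 9 fell (-1.44), and of 6 mitotic kinases and passenger proteins 4 fell (-1.46). The kinase gene plk1 had 2.52, 2.22 and 1.83 CPM in mvp-7dpa hearts, against 6.27, 8.05 and 7.36 CPM in WT-7dpa hearts (log2 fold change -1.72, SE 0.18, adjusted p = 0.0031). The spindle motor gene kif11 had 3.26, 3.42 and 3.35 CPM, against 7.72, 10.5 and 9.83 CPM in WT-7dpa hearts (-1.48, SE 0.15, adjusted p = 0.0031). Both genes were at a few CPM in either genotype, above the floor in every library, and their groups lay well apart. Condensin, cohesion and topology genes fell in 7 of 9 cases (-1.25), with top2a at 5.69, 6.47 and 5.27 CPM in mvp-7dpa hearts and 11.05, 16.5 and 15.5 CPM in WT-7dpa hearts. The mitotic exit genes cdc20 (-1.57) and ube2c (-1.53) fell too. The proliferation marker mki67 had 9.17, 9.57 and 7.24 CPM in mvp-7dpa hearts, against 16.7, 36.0 and 33.5 CPM in WT-7dpa hearts (-1.73, SE 0.29, adjusted p = 0.018). Here replicate 1 was nearer to the mutant libraries than the other wild-type libraries were, although still above them.

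Of 6 transcription factors and pocket proteins of the cycle, 2 fell (median -0.44). The transcription factor gene foxm1, which drives mitotic genes, fell (log2 fold change -2.01, adjusted p = 0.037) but was near 1 CPM in the wild type. The repressor gene e2f8 fell (-1.45, adjusted p = 0.042). The pocket protein genes rb1 and rbl1 did not pass the test, nor did the kinase inhibitor gene cdkn1a, with 10.3, 9.02 and 10.4 CPM in mvp-7dpa hearts and 8.62, 7.19 and 7.5 CPM in WT-7dpa hearts. Of 14 histone genes tested, 3 fell (21.4%, beside 4.27% of all genes) and 0 rose, and the wild-type libraries agreed on the list (-0.31, -0.10 and -0.17). Among these were the linker histone genes histh1l1 (-1.19, adjusted p = 0.0037) and h1-10 (-0.55, adjusted p = 0.0085). All 3 histone genes that fell were also lower in mvp-sham than in WT-sham hearts without overlap, while the sham median of the list was 0.01.

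**Figure D2:**
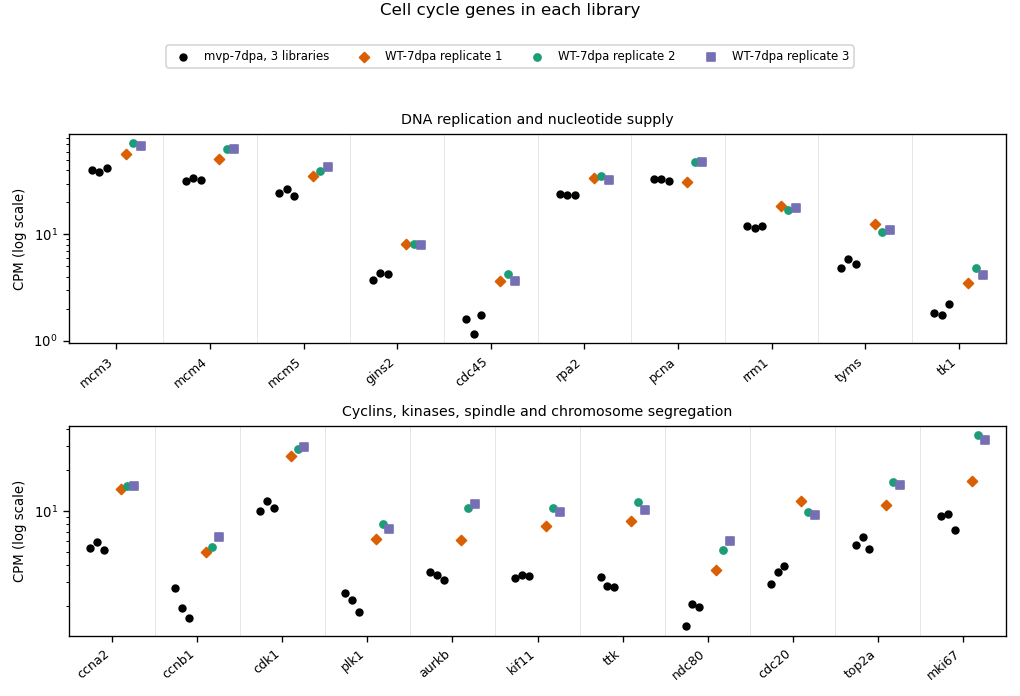
CPM on a log axis of cell cycle genes in each library, with the 3 mvp-7dpa libraries (black) left of WT-7dpa replicates 1 (diamonds), 2 (circles) and 3 (squares). The genes drawn were picked by hand. The mutant libraries lie below all wild-type libraries for every gene drawn except pcna, where replicate 1 at 31.0 CPM lies just below the mutant range. Over the full list the mutant libraries lie below all wild-type libraries in 88 of 109 genes, beside 16.8% of all genes.

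Genes of red blood cells were higher in mvp-7dpa hearts. Of 24 erythroid and globin genes tested, 10 rose (41.7%, beside 4.32% of all genes) and 0 fell, with a median log2 fold change of 0.96. The wild-type libraries agreed on the direction, though not on the size, with medians of 0.46, 1.31 and 1.26. The haem synthesis gene alas2 had 134, 130 and 129 CPM in mvp-7dpa hearts, against 103, 38.6 and 40.2 CPM in WT-7dpa hearts, and did not pass the test (1.11, adjusted p = 0.12). The erythroid transcription factor genes gata1a (0.86, adjusted p = 0.024) and klf1 (1.13, adjusted p = 0.039) both rose. The gene klf1 had 43.0, 43.9 and 45.8 CPM in mvp-7dpa hearts, against 29.3, 14.9 and 16.3 CPM in WT-7dpa hearts. Replicate 1 lay between the other wild-type libraries and the mutant ones. Erythrocyte carbonic anhydrase cahz (1.44, adjusted p = 0.041), the membrane skeleton gene epb41b (1.04, adjusted p = 0.049) and hemgn (1.31, adjusted p = 0.028) showed the same order. The adult alpha globin gene hbaa1 had 334, 342 and 359 CPM in mvp-7dpa hearts and 291, 126 and 128 CPM in WT-7dpa hearts (0.92, adjusted p = 0.13), while hbaa2 was highest in replicate 1, at 133, 109 and 156 CPM in mvp-7dpa hearts and 179, 23.6 and 27.2 CPM in WT-7dpa hearts. The list summed to 2277, 2255 and 2373 CPM in mvp-7dpa hearts, against 1493, 799 and 807 CPM in WT-7dpa hearts. How far blood held in the collected tissue takes part in this or in any other result was not tested. The sham median of the list was 0.44. Without WT-7dpa replicate 1, 2 or 3, 18, 3 and 2 genes were called higher, and without mvp-7dpa replicate 1, 2 or 3, 2, 1 and 1. Of 14 thrombocyte genes, 2 rose, the surface receptor gene gp9 (2.11, adjusted p = 0.0092) and the transcription factor gene nfe2 (0.67, adjusted p = 0.011), and the wild-type libraries did not agree on that list (-0.02, 0.13 and 0.08).

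Some targets of the glucocorticoid receptor rose in mvp-7dpa hearts. The receptor binds the stress hormone cortisol and switches on a set of genes that limit inflammation and alter metabolism. Of 30 genes of the response tested, 11 rose (36.7%, beside 4.32% of all genes) and none fell (median 0.40), and the wild-type libraries agreed (0.38, 0.33 and 0.20). The gene fkbp5, whose product damps the receptor, had 121, 125 and 122 CPM in mvp-7dpa hearts, against 18.4, 30.5 and 32.1 CPM in WT-7dpa hearts (2.18, SE 0.20, adjusted p = 0.0023). The transcription factor gene klf9 had 22.0, 20.1 and 22.7 CPM, against 1.80, 4.32 and 4.16 CPM in WT-7dpa hearts (2.66, SE 0.30, adjusted p = 0.0045). Both genes were lowest in wild-type replicate 1, and klf9 is in the immediate early list too. The kinase gene sgk1 (0.79, adjusted p = 0.0086), the leucine zipper gene tsc22d3 (0.53, adjusted p = 0.0084), cebpd (0.56, adjusted p = 0.0065), the Egf receptor inhibitor gene ERRFI1 (0.88, adjusted p = 0.0011) and the forkhead genes foxo3a (0.96, adjusted p = 0.0087) and foxo3b (0.59, adjusted p = 0.015) rose as well. The receptor gene nr3c1 itself was at 37.0, 38.4 and 36.0 CPM in mvp-7dpa hearts and 10.4, 28.4 and 32.3 CPM in WT-7dpa hearts (0.65, adjusted p = 0.31). Leaving out mvp-7dpa replicates 1, 2 and 3 in turn, 4 genes were called higher each time. Without WT-7dpa replicates 1, 2 and 3 in turn, 17, 9 and 8 were called higher, and 3 lower without replicate 1. Other listed targets, such as dusp1 and CISH, overlapped between the groups. The sham median of the list was 0.75, and fkbp5 and klf9 were also higher in mvp-sham than in WT-sham hearts (log2 differences 4.77 and 3.47).

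Immediate early genes and clock genes were also higher in median. Immediate early genes are switched on within minutes of a stimulus, and clock genes form the feedback loop of the daily rhythm. Of 35 immediate early genes tested, 10 rose (28.6%, beside 4.32% of all genes) and 1 fell (median 0.30), and the wild-type libraries agreed (0.21, 0.48 and 0.44). Without WT-7dpa replicates 1, 2 and 3 in turn, 24, 7 and 6 were called higher, and 6 without each mvp-7dpa library. The stress factor gene atf3 had 395, 387 and 377 CPM in mvp-7dpa hearts, against 222, 219 and 211 CPM in WT-7dpa hearts (0.83, adjusted p = 0.0011). The AP-1 subunits jund (0.98, adjusted p = 0.0026) and jun (0.85, adjusted p = 0.013), the nuclear receptor gene nr4a3 (1.21, adjusted p = 0.0026) and the phosphatase gene dusp2 (1.32, adjusted p = 0.00048) rose. KLF11 (ENSDARG00000013794) was the 1 that fell, at 5.78, 4.76 and 5.09 CPM in mvp-7dpa hearts and 16.1, 16.3 and 17.15 CPM in WT-7dpa hearts (-1.66, adjusted p = 0.00057). In sham hearts the median difference of the immediate early genes was 2.16.

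Of 40 clock genes tested, 4 rose (beside 4.32% of all genes) and 1 fell (median 0.23), again with agreement of the wild-type libraries (0.17, 0.26 and 0.24). The number called higher was 18 without WT-7dpa replicate 1, 3 without replicate 2 or 3 and 2 without any one mvp-7dpa library. The repressor gene nr1d2a had 215.9, 194.5 and 233.3 CPM in mvp-7dpa hearts, against 55.9, 37.5 and 40.8 CPM in WT-7dpa hearts (2.26, SE 0.16, adjusted p = 0.0007). The repressor gene nfil3-6 (1.09, adjusted p = 0.00048) and the cryptochromes CRY1 (ENSDARG00000011583; 0.61, adjusted p = 0.0068) and cry3a (0.66, adjusted p = 0.027) rose, and bhlhe40 fell (-0.67, adjusted p = 0.014). The light-responsive gene per2 was at 81.4, 80.2 and 87.2 CPM in mvp-7dpa hearts and 10.2, 56.2 and 57.8 CPM in WT-7dpa hearts (1.0, adjusted p = 0.30). The core activator genes BMAL1 (ENSDARG00000006791) and CLOCK (ENSDARG00000003631) overlapped between the groups.

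**Figure D3:**
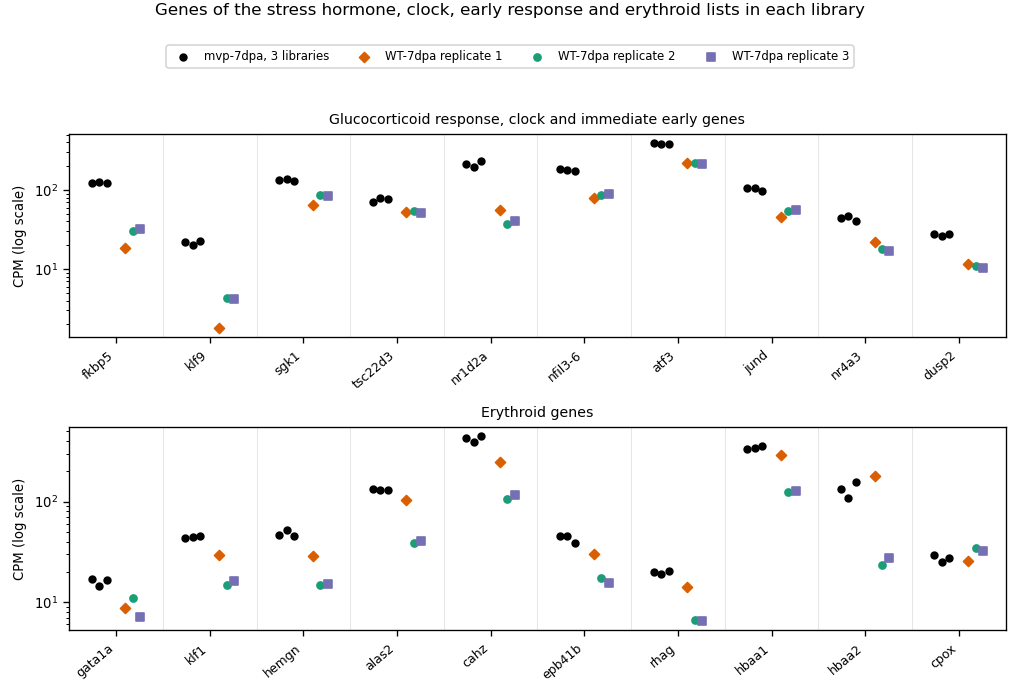
CPM on a log axis of glucocorticoid response, clock and immediate early genes (top) and of erythroid genes (bottom) in each library, with the 3 mvp-7dpa libraries (black) left of WT-7dpa replicates 1 (diamonds), 2 (circles) and 3 (squares). The genes of the top row were picked from those called higher, so each is higher in all mutant libraries than in any wild-type library. Over the full lists this holds for 14 of 30 glucocorticoid, 16 of 40 clock and 18 of 35 immediate early genes, beside 17.5% of all genes. In the bottom row replicate 1 often lies between the mutant and the other wild-type libraries, as for klf1 at 29.3 CPM.

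Insulin signalling, hypoxia and Egf receptor genes were lists on which the wild-type libraries also agreed. The lists share members, so their counts are not independent. IRS2 (ENSDARG00000075282) is in the insulin and the glucocorticoid list, and IGFBP1 is in the insulin and the hypoxia list. Of 18 genes of insulin-like growth factors, their binding proteins and receptors, 6 rose (33.3%, beside 4.32% of all genes) and 1 fell (median 0.30, with 0.22, 0.44 and 0.34 against the 3 libraries). Leaving out WT-7dpa replicates 1, 2 and 3 gave 10, 3 and 2 genes called higher, and leaving out any one mvp-7dpa library gave 2. The receptor substrate gene irs1 had 67.0, 66.6 and 67.9 CPM in mvp-7dpa hearts, against 44.0, 36.3 and 37.9 CPM in WT-7dpa hearts (0.77, adjusted p = 0.0045), and IRS2 (ENSDARG00000075282) rose as well (0.77, adjusted p = 0.004). Genes of secreted binding proteins rose too, with IGFBP1 at 21.3, 20.9 and 20.9 CPM in mvp-7dpa hearts and 11.75, 5.71 and 7.32 CPM in WT-7dpa hearts (1.35, adjusted p = 0.021). The growth factor gene igf2b fell (-0.35, adjusted p = 0.043). Of 42 hypoxia factors and targets, 9 rose (21.4%, beside 4.32% of all genes) and 1 fell (0.19, 0.20 and 0.15). The number called higher was 20, 2 and 1 without WT-7dpa replicates 1, 2 and 3, and 1 without any one mvp-7dpa library. The factor genes hif1al (1.03, adjusted p = 0.0049), hif1al2 (1.23, adjusted p = 0.021) and EPAS1 (ENSDARG00000057671; 0.61, adjusted p = 0.024) were among the 9, and the haem oxygenase gene HMOX1 was the 1 that fell (-0.38, adjusted p = 0.044). In the list of neuregulin, Egf and Erbb genes 1 of 11 rose, ERRFI1, which the glucocorticoid list holds too. The cardiomyocyte mitogen gene nrg1 was at 2.74, 2.96 and 2.75 CPM in mvp-7dpa hearts and 1.21, 2.07 and 1.40 CPM in WT-7dpa hearts and did not pass the test (0.86, adjusted p = 0.07).

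Chaperone genes were slightly higher in median. Of 94 heat shock and DnaJ genes tested, 11 rose (11.7%, beside 4.32% of all genes) and 1 fell (median 0.17), and the wild-type libraries agreed (0.19, 0.10 and 0.10). Without WT-7dpa replicates 1, 2 and 3 in turn, 30, 5 and 4 were called higher, and without any one mvp-7dpa library 1 was. The inducible chaperone gene hsp70.1 had 51.7, 55.3 and 54.1 CPM in mvp-7dpa hearts, against 37.7, 33.0 and 34.7 CPM in WT-7dpa hearts (0.61, adjusted p = 0.0066). The small heat shock gene hspb8 (0.71, adjusted p = 0.004) and its partner bag3 (0.62, adjusted p = 0.0096) rose together, as did hspa1b (0.80, adjusted p = 0.012). Genes of the unfolded protein response were mixed: 7 of 64 rose (10.9%) and 5 fell (7.81%, beside 4.27% of all genes), and the medians of 0.29, -0.03 and -0.03 did not agree. Those that rose included trib3 (0.91, adjusted p = 0.0037), ppp1r15a (0.78, adjusted p = 0.0085), atf5a (1.04, adjusted p = 0.015) and atf4b (0.38, adjusted p = 0.018), which belong to the integrated stress response. The sensor gene ern1 (-1.07, adjusted p = 0.0082) and the disposal factor genes edem1 (-0.51, adjusted p = 0.01) and herpud1 (-0.36, adjusted p = 0.044) fell.

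Ribosomal protein genes were slightly higher in median. Of 81 tested, 8 rose (9.88%, beside 4.32% of all genes) and 1 fell. In 55 the mutant libraries lay above all wild-type libraries, as 17.5% of all genes did (median 0.27, with 0.23, 0.33 and 0.26 against the 3 libraries). Typical of these was rpl4, with 328, 320 and 343 CPM in mvp-7dpa hearts and 264, 266 and 270 CPM in WT-7dpa hearts (0.31, adjusted p = 0.034). The largest difference was in rps12, at 231.1, 232.7 and 269.6 CPM in mvp-7dpa hearts and 54.5, 108.9 and 115.6 CPM in WT-7dpa hearts (1.39, adjusted p = 0.026). Without WT-7dpa replicate 1, 62 were called higher, and without any one of the other 5 libraries 1 or none. Of genes that assemble the ribosome, 8 of 102 rose (7.84%) and none fell, with medians of 0.39, 0.13 and 0.15. Without WT-7dpa replicate 1, 37 were called higher, and without any one of the other 5 libraries 2 to 4. The processing factor gene nop14 rose most clearly, at 13.03, 13.4 and 13.2 CPM in mvp-7dpa hearts and 3.996, 5.17 and 4.59 CPM in WT-7dpa hearts (1.53, adjusted p = 0.0012). The helicase genes ddx54 (0.91, adjusted p = 0.0018) and ddx21 (0.62, adjusted p = 0.0082) followed. In sham hearts the medians of both lists were near 0 (-0.03 and -0.09).

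Energy metabolism showed small differences. Of 48 genes of fatty acid oxidation and the citric acid cycle, 7 fell (14.6%, beside 4.27% of all genes) and 2 rose (median -0.16), and the wild-type libraries agreed (-0.24, -0.11 and -0.13). The number called lower was 22, 4 and 3 without WT-7dpa replicates 1, 2 and 3, and 0, 1 and 0 without mvp-7dpa replicates 1, 2 and 3. The short-chain acyl-CoA dehydrogenase gene acads had 49.6, 49.6 and 52.3 CPM in mvp-7dpa hearts, against 113.5, 77.3 and 86.2 CPM in WT-7dpa hearts (-0.87, adjusted p = 0.013). The coactivator gene ppargc1b, which promotes mitochondrial gene expression, fell (-0.78, adjusted p = 0.008), as did acad9 (-0.46, adjusted p = 0.011) and the carnitine transferase gene cpt2 (-0.35, adjusted p = 0.027). For the nuclear genes of the respiratory chain the medians were -0.34, 0.05 and -0.02, and 1 of 92 fell, COX5B (ENSDARG00000015978; -0.55, adjusted p = 0.047). The 13 mitochondrially encoded genes gave -0.37, 0.07 and 0.08 with none called, in step with the high mitochondrial share of replicate 1. Glycolysis genes gave medians of 0.01, 0.00 and 0.05, with 3 of 40 higher, including the phosphofructokinase gene PFKP (ENSDARG00000028000; 0.67, adjusted p = 0.018), and 1 lower. Cholesterol synthesis genes were slightly higher against all 3 libraries (0.13, 0.11 and 0.23), with 1 of 28 called, the feedback regulator insig1 (0.33, adjusted p = 0.043).

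Some genes of muscle structure rose and others fell. Of 34 sarcomere genes, 4 rose and 2 fell, larger shares than the 4.32% and 4.27% of all genes. The medians of the list were -0.19, 0.06 and 0.05. The Z-disc gene tcap was higher than in all 3 wild-type libraries, at 2422, 2469 and 2495 CPM in mvp-7dpa hearts and 891, 1327 and 1341 CPM in WT-7dpa hearts (1.05, adjusted p = 0.011). Paralogues of the thin filament gene LMOD2 moved apart, with ENSDARG00000045864 higher (0.79, adjusted p = 0.013) and ENSDARG00000045634 lower (-0.49, adjusted p = 0.016), and reads of such copies may be split between them. On genes of the intercalated disc, which joins cardiomyocytes, the wild-type libraries agreed (0.18, 0.14 and 0.15), and 3 of 24 rose (12.5%) and 1 fell (4.17%). The desmosome gene pkp2 had 27.9, 30.6 and 28.9 CPM in mvp-7dpa hearts, against 8.46, 10.97 and 12.24 CPM in WT-7dpa hearts (1.46, SE 0.14, adjusted p = 0.0024), and the desmosomal cadherin gene dsg2.1 rose (0.45, adjusted p = 0.03). Among 23 ion channel and calcium handling genes 1 fell, a sodium pump beta subunit gene listed as ATP1B1 (ENSDARG00000076833), at 5.86, 5.69 and 6.97 CPM in mvp-7dpa hearts and 34.9, 57.7 and 57.2 CPM in WT-7dpa hearts (-3.01, adjusted p = 0.00084). Of 14 cardiac transcription factor genes 2 fell (14.3%, beside 4.27% of all genes), gata5 (-0.53, adjusted p = 0.021) and TBX2 (ENSDARG00000018025; -0.95, adjusted p = 0.019). Their medians were -0.31, -0.06 and -0.08. The wall stress genes nppa and nppb overlapped between the groups. Levels of nppa were 1071, 1014 and 1061 CPM in mvp-7dpa hearts and 988, 1217 and 1180 CPM in WT-7dpa hearts. Of 12 natriuretic peptide and strain genes tested, 1 rose, bag3, and 0 fell, with medians of 0.53, 0.13 and 0.07. In 4 the mutant libraries lay above all wild-type libraries, and in 1 below them, beside 17.5% and 16.8% of all genes. The sham median of the list was 1.296, and nppa and nppb were higher in mvp-sham hearts (log2 differences 0.24 and 3.71).

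Endothelial genes were called in both directions. Of 44 tested, 7 rose (15.9%, beside 4.32% of all genes) and 4 fell (9.09%, beside 4.27%), with medians of 0.04, 0.19 and 0.13. Without WT-7dpa replicates 1, 2 and 3 in turn, 21, 4 and 4 were called higher. Without mvp-7dpa replicates 1, 2 and 3 in turn, the number was 1, 2 and 1. The Vegf receptor genes kdrl, flt1 and flt4 all rose (0.53, 0.91 and 0.69, adjusted p = 0.0073, 0.013 and 0.037). Values of kdrl were 93.4, 87.4 and 92.3 CPM in mvp-7dpa hearts, against 65.7, 59.4 and 63.7 CPM in WT-7dpa hearts. The endothelial genes egfl7 (0.66, adjusted p = 0.0034) and tal1 (0.68, adjusted p = 0.0077) and the flow-responsive gene klf2a (0.37, adjusted p = 0.047) rose, and the apelin receptor genes aplnra (-0.70, adjusted p = 0.043) and aplnrb (-0.71, adjusted p = 0.042) fell. In the Notch pathway, the ligand gene dll4 (0.36, adjusted p = 0.029), the receptor modifier gene lfng (0.70, adjusted p = 0.0087) and the feedback gene NRARP (ENSDARG00000018958; 0.92, adjusted p = 0.042) rose and her15.1 fell, while the medians of its 22 genes had different signs (0.06, 0.02 and -0.08). Of 51 genes of Tgf-beta, activin and Bmp signalling 6 rose and 2 fell, with medians of 0.02, 0.13 and 0.13. Among its ligands, tgfb3 (0.58, adjusted p = 0.022), the activin subunits inhbb (ENSDARG00000040777; 1.32, adjusted p = 0.019) and INHBA (ENSDARG00000012671; 0.51, adjusted p = 0.021), and mstnb (1.47, adjusted p = 0.018) rose. The target gene ID2 fell, with 14.03, 12.9 and 13.98 CPM in mvp-7dpa hearts and 23.3, 22.8 and 24.3 CPM in WT-7dpa hearts (-0.78, adjusted p = 0.0037).

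Epicardial genes gave medians of -0.03, 0.30 and 0.21, and 0 of 18 passed edgeR's test, with 3 higher at an unadjusted p under 0.05 and 3 higher by DESeq2. Without replicate 1, 9 were called higher and 2 lower. The epicardial and fibroblast transcription factor gene tcf21 had 16.5, 15.96 and 13.2 CPM in mvp-7dpa hearts, against 7.48, 10.6 and 10.7 CPM in WT-7dpa hearts (0.67, adjusted p = 0.052). The retinoic acid synthesis gene aldh1a2, which marks the activated epicardium and endocardium, had 211.8, 209.2 and 210.7 CPM, against 148.9, 173.5 and 181.0 CPM in WT-7dpa hearts (0.33, adjusted p = 0.064). In both genes the groups did not overlap. Other members went the other way: of the 18 genes, 3 were higher without overlap and 3 lower. Beside these stand 17.5% of all genes higher without overlap and 16.8% lower, so the list was near the share of all genes. The 3 lower genes were tbx18, hapln1a and the gene WT1. The gene tbx18 had 28.4, 27.2 and 29.0 CPM in mvp-7dpa hearts, against 51.3, 29.9 and 34.1 CPM in WT-7dpa hearts (-0.45, adjusted p = 0.19). Of 30 retinoic acid genes 2 rose and 2 fell, and the retinoic acid degrading gene cyp26b1 was lower, at 33.5, 31.3 and 35.7 CPM in mvp-7dpa hearts and 64.2, 55.4 and 66.5 CPM in WT-7dpa hearts (-0.89, adjusted p = 0.0034). Mural cell genes had medians of 0.29, 0.15 and 0.15, with 0 of 11 called by edgeR (2 higher and 1 lower at an unadjusted p under 0.05, and 1 higher by DESeq2).

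Interferon response genes separated the wild-type libraries from each other. Interferons are antiviral cytokines that induce the Mx, Ifit and Isg15 proteins. Of 53 genes tested, 12 fell (22.6%, beside 4.27% of all genes) and 1 rose (median -0.99). In 21 the mutant libraries lay below all wild-type libraries, as 16.8% of all genes did. The medians were -0.08 against replicate 1 and -1.31 and -1.26 against replicates 2 and 3, so the wild-type libraries had the same sign but did not agree by the stated rule. The gene isg15 had 4.78, 4.49 and 4.77 CPM in mvp-7dpa hearts, against 10.8, 68.7 and 71.1 CPM in WT-7dpa hearts (-3.42, SE 0.69, adjusted p = 0.033). The Mx gene mxb had 0.565, 0.555 and 0.229 CPM, against 1.25, 51.7 and 50.7 CPM in WT-7dpa hearts (-6.24, SE 1.43, adjusted p = 0.047). In both, replicate 1 was above the mutant libraries but far closer to them than to the other wild-type libraries. The transcription factor gene stat2 (-1.49, adjusted p = 0.045), ifit8 (-5.47, adjusted p = 0.041), usp18 (-1.64, adjusted p = 0.029) and xaf1 (-1.67, adjusted p = 0.027) had the same order. In others replicate 1 lay within or below the mutant range: mxc was at 4.47, 4.35 and 4.54 CPM in mvp-7dpa hearts and 1.76, 52.2 and 56.2 CPM in WT-7dpa hearts, and the chemokine gene cxcl11.1 at 1.22, 0.833 and 1.1 CPM in mvp-7dpa hearts and 0.862, 34.8 and 38.8 CPM in WT-7dpa hearts. The gene that rose was ifi44f1, at 16.1, 14.7 and 15.0 CPM in mvp-7dpa hearts and 9.09, 7.42 and 8.47 CPM in WT-7dpa hearts (0.87, adjusted p = 0.0065). Without replicate 1, 45 of the 53 genes were called lower, and without any one of the other 5 libraries 0 were. Over the list, 46 genes were lower in the mutant than in both replicates 2 and 3, and in these replicate 1 lay on the same side in 21, within the mutant range in 10 and beyond it in 15. In sham hearts the median difference was -0.17.

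**Figure D4:**
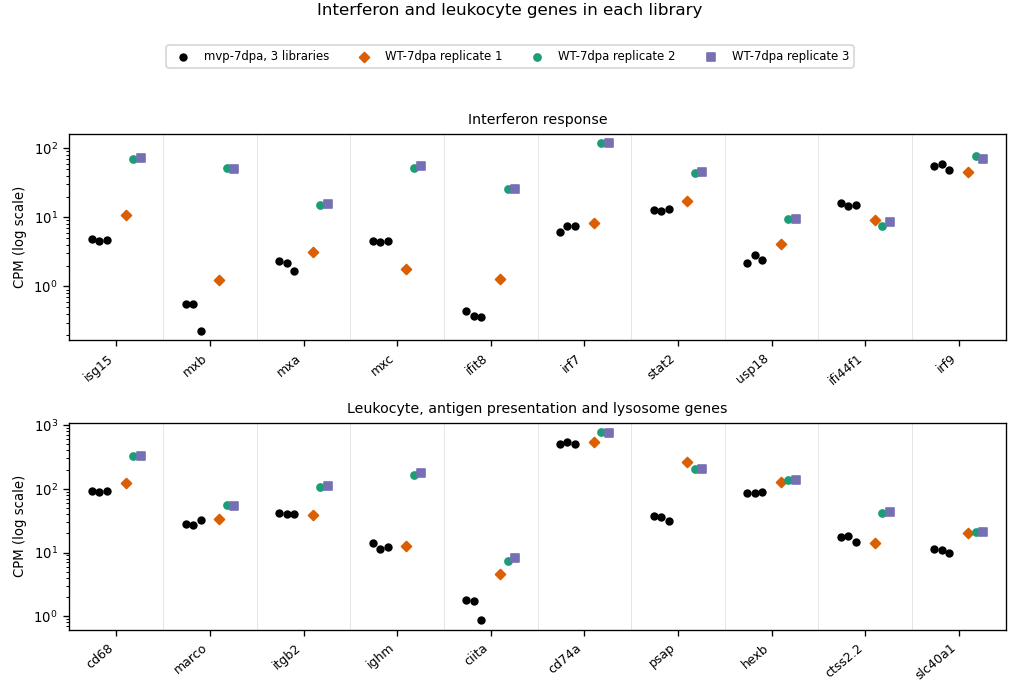
CPM on a log axis of interferon response genes (top) and of leukocyte, antigen presentation and lysosome genes (bottom) in each library, with the 3 mvp-7dpa libraries (black) left of WT-7dpa replicates 1 (diamonds), 2 (circles) and 3 (squares). For isg15 replicate 1 is at 10.8 CPM and the other wild-type libraries are at 68.7 and 71.1 CPM, whereas for psap and hexb all wild-type libraries lie together above the mutant ones.

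Leukocyte genes followed the same split. Of 36 macrophage genes 3 fell, slc40a1, HMOX1 and cd68, and the medians were -0.05, -0.87 and -0.87. In the iron exporter gene slc40a1 all wild-type libraries stood together, with 11.5, 10.8 and 9.99 CPM in mvp-7dpa hearts and 20.02, 21.1 and 20.9 CPM in WT-7dpa hearts (-0.94, adjusted p = 0.0027). The phagocyte gene cd68 had 91.4, 87.5 and 92.5 CPM in mvp-7dpa hearts, against 125, 325 and 327 CPM in WT-7dpa hearts (-1.52, adjusted p = 0.045). In neutrophil genes the medians changed sign, at 0.40, -0.93 and -1.06, and 1 of 22 fell, the growth factor gene csf3a (-1.68, adjusted p = 0.035). The leukocyte integrin gene itgb2 was at 42.1, 40.05 and 40.02 CPM in mvp-7dpa hearts and 38.4, 108.0 and 108.7 CPM in WT-7dpa hearts. Lymphocyte genes had medians of 0.21, -0.77 and -0.84, with 1 of 31 called, the T cell kinase gene lck (-1.61, adjusted p = 0.042). The antibody heavy chain gene ighm was at 13.9, 11.2 and 12.24 CPM in mvp-7dpa hearts and 12.4, 165.6 and 173.6 CPM in WT-7dpa hearts. Summed levels of the neutrophil list were 1455, 1390 and 1565 CPM in mvp-7dpa hearts and 1353, 2046 and 2084 CPM in WT-7dpa hearts. In sham hearts the median differences of the macrophage, neutrophil and lymphocyte lists were 0.73, 0.36 and 0.30, thus higher in the mutant. How far leukocyte content takes part in the other differences was not tested.

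On antigen presentation by MHC class II the wild-type libraries agreed by the stated rule, although replicate 1 stood apart here too. Of 12 genes of MHC class II and its invariant chain 5 fell (41.7%, beside 4.27% of all genes) and none rose. The median against replicate 1 was the smallest in size (-0.15, -1.13 and -1.03). All 12 genes were lower in the mutant than in both replicates 2 and 3. Replicate 1 lay on the same side in 6 of these, within the mutant range in 2 and beyond it in 4. The class II transactivator gene ciita had 1.78, 1.76 and 0.871 CPM in mvp-7dpa hearts, against 4.62, 7.46 and 8.11 CPM in WT-7dpa hearts (-2.19, SE 0.33, adjusted p = 0.011). The dendritic cell gene cd83 (-2.17, adjusted p = 0.034) and the class II genes mhc2d4b (-1.01, adjusted p = 0.0077), mhc2dhb (-0.55, adjusted p = 0.029) and mhc2dga (-1.13, adjusted p = 0.037) fell. Without replicate 1 all 12 were called lower, without replicate 2 or 3 the number was 2, and without any one of the mvp-7dpa libraries it was 0. The invariant chain genes cd74a and cd74b did not pass the test. One class II gene, mhc2dab, had no count in replicate 1 and 19.2, 15.7 and 21.2 CPM in mvp-7dpa hearts and 54.9 and 57.4 CPM in WT-7dpa replicates 2 and 3. In sham hearts the median difference of the list was 0.89, and mhc2dhb and mhc2dga were higher in the mutant, by 6.89 and 5.88 on the log2 scale. Class I genes gave medians of 0.21, -0.43 and -0.44, with 1 of 33 higher (mhc1zda; 2.34, adjusted p = 0.032) and 2 lower (mhc1uca and mhc1zja). Class I and class II genes are polymorphic families with near-identical copies, so that these values are uncertain.

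Other immune families split in the same way. Inflammatory cytokine and NF-kB genes had medians of 0.11, -0.44 and -0.62. Of 38 genes 1 rose, cebpd, and the groups did not overlap in tnfb, at 5.30, 5.50 and 4.63 CPM in mvp-7dpa hearts and 7.33, 31.4 and 35.6 CPM in WT-7dpa hearts (-2.27, adjusted p = 0.053). Chemokine genes had medians of 0.03, -0.64 and -0.59, and 6 of 48 fell (12.5%, beside 4.27% of all genes) and 2 rose (4.17%, beside 4.32%). The genes ccl39.1, ccl39.2 and ccl39.5 fell, with ccl39.5 at 0.0869, 0.185 and 0.275 CPM in mvp-7dpa hearts and 3.37, 2.52 and 1.90 CPM in WT-7dpa hearts (-3.80, adjusted p = 0.0037). The chemokine gene cxcl12b, whose product guides coronary endothelial cells in zebrafish, rose, at 203.7, 200.7 and 197.6 CPM in mvp-7dpa hearts and 141.5, 90.9 and 89.2 CPM in WT-7dpa hearts (0.90, adjusted p = 0.027). In the finTRIM, Gimap and NLR families 6 of 49 fell and 2 rose, with medians of 0.01, -0.61 and -0.76. Genes of the Il6 family and its Jak-Stat pathway had medians of 0.30, -0.17 and -0.20. The kinase gene jak2a rose, at 31.7, 31.2 and 34.9 CPM in mvp-7dpa hearts and 14.3, 14.2 and 17.3 CPM in WT-7dpa hearts (1.09, adjusted p = 0.0026), lepr rose (0.41, adjusted p = 0.033) and stat5a fell (-1.36, adjusted p = 0.021).

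Lysosomal genes held both kinds of pattern. Of 79 tested 12 fell (15.2%, beside 4.27% of all genes) and 2 rose (median -0.43), with medians of -0.03, -0.50 and -0.52 against the 3 libraries. Without WT-7dpa replicate 1, 50 fell, and without any one of the other 5 libraries 2 or 3 did. On the prosaposin gene psap, which encodes activators of sphingolipid breakdown, all wild-type libraries stood far above the mutant, at 37.1, 36.5 and 31.7 CPM in mvp-7dpa hearts and 258.8, 201.4 and 202.6 CPM in WT-7dpa hearts (-2.65, SE 0.13, adjusted p = 0.00015). The hexosaminidase gene hexb (-0.63, adjusted p = 0.0031) and the cystine transporter gene ctns (-0.85, adjusted p = 0.0068) were also lower than in each wild-type library. Proton pump genes atp6v0b (-0.43, adjusted p = 0.013), atp6v0d1 (-0.40, adjusted p = 0.026) and atp6v1g1 (-0.56, adjusted p = 0.037) fell. Of proteasome genes, 6 of 62 fell (9.68%, beside 4.27% of all genes) and 1 rose (medians -0.08, -0.24 and -0.25). In 31 the mutant libraries lay below all wild-type libraries, as 16.8% of all genes did. Without WT-7dpa replicate 1, 44 were called lower, and without any one of the other 5 libraries 0 were. Examples are psma3, at 172.8, 161.2 and 187.9 CPM in mvp-7dpa hearts and 224.9, 218.1 and 226.9 CPM in WT-7dpa hearts (-0.36, adjusted p = 0.036), and the regulator psmf1 (-0.96, adjusted p = 0.029). The activator gene psme3 rose (0.33, adjusted p = 0.039).

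Matrix genes reversed between the wild-type libraries. Collagen genes were lower than replicate 1 and higher than the others, with medians of -0.46, 0.27 and 0.33, and 0 of 30 passed edgeR's test (2 higher and 2 lower at an unadjusted p under 0.05, none by DESeq2), whereas 16 were called higher without replicate 1. Summed over the list, collagens were at 2944, 3002 and 2975 CPM in mvp-7dpa hearts and 4320, 2427 and 2292 CPM in WT-7dpa hearts. Fibroblast genes (-0.49, 0.28 and 0.26), other matrix genes (-0.31, 0.12 and 0.11) and Hedgehog pathway genes (-0.35, 0.22 and 0.15) had the same order. The matrix protein gene sparc illustrates it, at 144.2, 155.2 and 146.9 CPM in mvp-7dpa hearts and 300.8, 150.0 and 157.4 CPM in WT-7dpa hearts. Of 85 other matrix genes, the mutant libraries lay above all wild-type libraries in 10 and below them in 12. Of 47 matrix protease and inhibitor genes the numbers were 8 and 8, and of 30 collagen genes 3 and 2. Beside these stand 17.5% and 16.8% of all genes. The genes given next were picked from those called, and every called gene stands apart in this way. The tenascin gene TNC (ENSDARG00000078362) fell, at 0.261, 0.509 and 0.275 CPM in mvp-7dpa hearts and 3.76, 1.62 and 1.76 CPM in WT-7dpa hearts (-2.76, adjusted p = 0.016). The crosslinking enzyme gene loxl2a rose, at 6.82, 6.89 and 7.24 CPM in mvp-7dpa hearts and 3.53, 3.06 and 3.52 CPM in WT-7dpa hearts (1.05, adjusted p = 0.0061), and so did the protease gene adamts1, at 44.7, 48.5 and 46.1 CPM in mvp-7dpa hearts and 23.7, 19.8 and 21.5 CPM in WT-7dpa hearts (1.1, adjusted p = 0.0012).

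**Figure D5:**
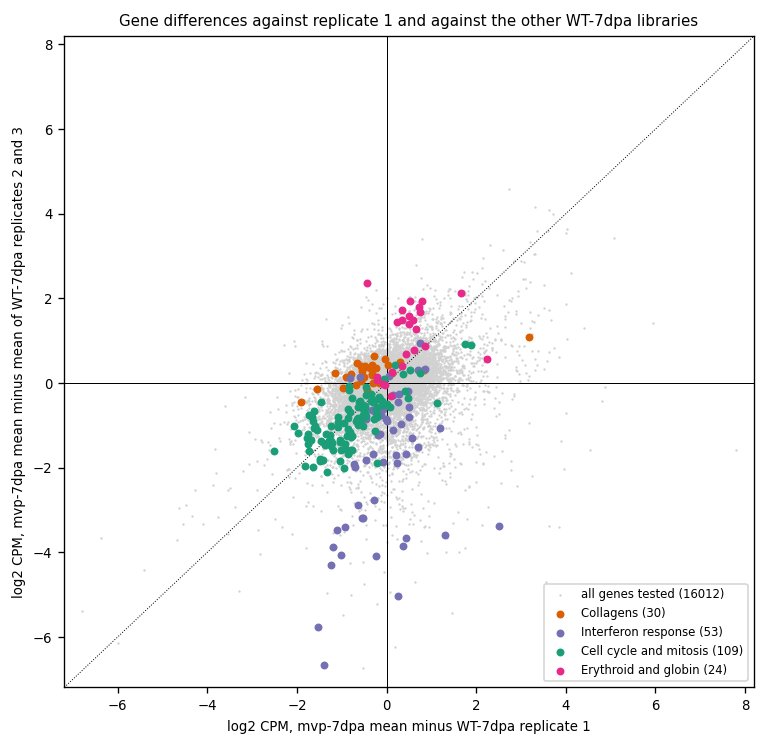
Each point is a gene, placed by its difference in log2 CPM between the mvp-7dpa mean and WT-7dpa replicate 1 (horizontal axis) and between the mvp-7dpa mean and the mean of WT-7dpa replicates 2 and 3 (vertical axis), with the line of equal differences dotted. Most of the 109 cell cycle genes lie below 0 on both axes, interferon genes reach farther below 0 on the vertical axis than on the horizontal one, most collagen genes lie left of 0 and above 0, and erythroid genes lie mostly above 0.

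The remaining lists had few called genes or no agreement. Fgf and Pdgf genes (-0.20, 0.01 and 0.10) included the feedback inhibitor gene spry4, which rose, at 299.7, 302.9 and 288.6 CPM in mvp-7dpa hearts and 141.6, 176.1 and 163.3 CPM in WT-7dpa hearts (0.89, adjusted p = 0.0031), and the ligand genes fgf1a (-1.36, adjusted p = 0.049) and PDGFA (ENSDARG00000098578; -0.79, adjusted p = 0.025), which fell. Of 40 p53 targets 5 rose (12.5%, beside 4.32% of all genes), among them ddb2 and sesn1. Another 5 fell (12.5%, beside 4.27%), among them mvp itself, which the list holds. The medians of the p53 list were -0.10, 0.11 and 0.05. In the Bcl2 and cell death list 2 of 48 rose, the caspase inhibitor gene xiap (0.74, adjusted p = 0.0033) and bcl2l10 (0.41, adjusted p = 0.035), and 2 fell, tnfsf10 (-0.51, adjusted p = 0.012) and the mitotic survival gene BIRC5 (-1.47, adjusted p = 0.021). Its medians were 0.06, -0.15 and -0.14. Iron handling genes (0.04, -0.02 and -0.02) included the ferritin genes fthl31 (-1.68, adjusted p = 0.0041) and fthl28 (-1.43, adjusted p = 0.0067). Hippo targets had 0 of 27 called by edgeR (4 higher and 2 lower at an unadjusted p under 0.05, and 2 higher and 1 lower by DESeq2), and ccn1 was at 1079, 1112 and 1089 CPM in mvp-7dpa hearts and 894, 587 and 585 CPM in WT-7dpa hearts (0.67, adjusted p = 0.055). Wnt genes had 1 of 65 higher, rspo3 (0.36, adjusted p = 0.021), and 1 lower. Annexins and S100 genes included anxa3b, which fell, at 96.9, 93.7 and 100.5 CPM in mvp-7dpa hearts and 213.5, 390.8 and 392.8 CPM in WT-7dpa hearts (-1.78, adjusted p = 0.0073). Of markers of neighbouring tissues, 1 of 8 skin genes rose (agr2) and 1 of 8 atrial genes fell (myh6, ENSDARG00000090637). By edgeR 0 of 5 liver and 0 of 8 skeletal muscle genes were called, with 1 liver gene higher and 1 lower, and 2 muscle genes lower, at an unadjusted p under 0.05 (DESeq2 called 1 muscle gene lower). The atrial list summed to 5408, 5444 and 5259 CPM in mvp-7dpa hearts and to 9449, 5482 and 5440 CPM in WT-7dpa hearts.

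Single called genes were ranked where the groups did not overlap and at least 1 CPM was reached in a group. Symbols shared by several Ensembl identifiers, clone or locus names and symbols ending in a dot and digits were left out. Among the genes kept, the largest rise was in oit3, with 4.3, 4.81 and 3.301 CPM in mvp-7dpa hearts and 0.0392, 0.315 and 0.287 CPM in WT-7dpa hearts (4.25, SE 0.46, adjusted p = 0.0036). In sham hearts oit3 was lower in the mutant (-4.3). It was followed by the lectin gene eslec, at 22.0, 19.4 and 23.9 CPM in mvp-7dpa hearts and 1.57, 1.44 and 1.15 CPM in WT-7dpa hearts (3.97, SE 0.16, adjusted p = 0.000114). CORO2A, rab38c, klf9, CYP1A1, foxg1b, mhc1zda, g0s2 and nr1d2a came next, with log2 fold changes of 2.26 to 3.71. The lipolysis inhibitor gene g0s2 was at 114.9, 113.9 and 118.9 CPM in mvp-7dpa hearts and 26.2, 21.9 and 23.8 CPM in WT-7dpa hearts (2.27, SE 0.09, adjusted p = 0.000114).

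Under the same rule, which leaves out genes such as ccl39.5, the largest falls included genes with almost no reads in the mutant. The gene fstl5 had no count in any mvp-7dpa library and 3.53, 1.93 and 1.54 CPM in WT-7dpa hearts, which is at least 17.6-fold lower against a floor of 3 counts per library. For myrfl the mutant had 0, 0.139 and 0.0459 CPM against 8.46, 9.85 and 8.97 CPM in WT-7dpa hearts, at least 68.5-fold lower, and all wild-type libraries stood together. By the same floor, caspbl was at least 7.89-fold lower and znf1179 at least 12.7-fold lower. Next to these stood the interferon genes mxb, ifit8 and helz2a, then tsnax, cfap70 and igldcp, with log2 fold changes of -3.48 to -6.24. In sham hearts myrfl (-1.57) and znf1179 (-1.42) were lower in the mutant too, whereas caspbl had no count in either genotype.

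Genes in which replicate 1 stood farthest from the other wild-type libraries were looked at too. It was higher in chd5, dgkh, hbaa2 and znfl2a, with dgkh at 1.26, 1.39 and 1.05 CPM in mvp-7dpa hearts and 15.9, 1.62 and 2.08 CPM in WT-7dpa hearts. It was lower in mhc2dab, SAA2, igl4v8 and il4i1. The leukocyte enzyme gene il4i1 was at 0.521, 0.231 and 0.642 CPM in mvp-7dpa hearts and 0.666, 52.1 and 58.9 CPM in WT-7dpa hearts. None of these 8 genes passed the test. They were picked for a wide spread among the wild-type libraries, which the test counts as error, so this outcome was largely set by the choice.

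The genes around mvp on its chromosome were counted as a list of their own. Of the 25 named genes on each side in the order of the RefSeq annotation (GRCz12tu), 40 were tested, 4 fell and 0 rose, with medians of -0.17, -0.06 and -0.06. These were the DNA polymerase gene pold1 (-0.79, adjusted p = 0.011), nme4 (-1.60, adjusted p = 0.024), lasp1 (-0.33, adjusted p = 0.037) and sgf29 (-0.78, adjusted p = 0.048). The polymerase gene had 12.03, 13.3 and 14.3 CPM in mvp-7dpa hearts, against 20.2, 23.1 and 25.2 CPM in WT-7dpa hearts.

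Set beside the sham libraries, the genes called at 7 dpa often lay on the same side there. Of the 692 genes that rose, 482 were higher in all 3 mvp-sham libraries than in all 3 WT-sham libraries, 96 were lower and 114 overlapped. Of the 684 that fell, 315 were lower in mvp-sham, 125 were higher and 244 overlapped. Of the 66 cell cycle genes that fell, 44 overlapped between the sham groups, among them cdk1, plk1 and mki67, whereas 18 were lower in mvp-sham, among them ccna2 (-0.70), and 4 were higher. Of the genes that rose at 7 dpa, 10 of 11 in the glucocorticoid list, 3 of 4 in the clock list and 9 of 10 in the immediate early list were higher in mvp-sham hearts as well, with log2 differences of 7.40 for atf3, 4.27 for jund and 2.83 for nr1d2a.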

How the data were processed

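Ventricle RNA of adult zebrafish was turned into RNA-seq libraries by a kit for small inputs (NovaSeq sequencing). Alignment to GRCz11 by the authors used HISAT2 2.1.0, reads were counted per Ensembl gene with featureCounts 1.6.0, and the deposited values are raw counts per gene, 1 table per library. The annotation release and the strand setting are not given in the sources used here, so overlapping and antisense genes, and near-identical copies, are uncertain.

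Of 32520 genes in the tables, 29201 were given a symbol. Symbols shared by several Ensembl identifiers are printed with the identifier. Genes were filtered by filterByExpr, scaled by TMM and tested between mvp-7dpa and WT-7dpa (6 libraries, group as the only term) with edgeR 4.0.16, using a robust quasi-likelihood fit and Benjamini-Hochberg adjustment over the 16012 genes tested (R 4.3.3). CPM values are counts divided by the TMM-scaled library size, and differences in log2 CPM use a prior count of 2. The test was run on simulated data in which both groups had the same spread for each gene. In the data the biological coefficient of variation was 5.21% in mvp-7dpa and 26.4% in WT-7dpa, which this check does not cover.

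The 66 gene lists, the tests and the genes to name were chosen with earlier results of these data known. Named were the vault genes, and the 10 called genes with the largest rise and the 10 with the largest fall (at least 1 CPM in a group, no overlap). Also named were up to 8 members of each list by p, and 8 genes in which WT-7dpa replicate 1 stood farthest from the other wild-type libraries. Except for the vault genes and list members, symbols shared by several identifiers, clone or locus names and symbols ending in a dot and digits were left out. Further members were picked after their values had been seen. Alternatives were all 12 libraries in 1 fit, DESeq2 1.42.0, its size factors, limma 3.58.1 with a variance per group, other filters, a replicate block, a minimum log2 fold change of 1 in size, and leaving out each library. Same-numbered libraries did not deviate together (correlations 0.016, 0.060 and -0.030), so the numbers were not used to pair them. No column of another series was present. Some members of the lists are not reported here by name.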

Additional observations from a re-analysis of the deposited data

Results flagged for a closer look

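Of 181 called genes named above, with cmlc1 not counted, 20 had groups that did not overlap in either surgery but lay in opposite directions. The same held for 96 of all 692 genes that rose and 125 of all 684 that fell. It was thus not particular to the genes named. The difference between the surgeries was not tested. Values are log2 differences, mvp minus wild type, at 7 dpa and then in sham hearts.

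Higher at 7 dpa and lower in sham hearts were oit3 (4.25 and -4.30), rab38c (3.38 and -2.06), mhc1zda (2.34 and -2.92), nop14 (1.53 and -0.70), foxo3a (0.96 and -1.09), ddb2 (0.84 and -0.25), cry3a (0.66 and -1.38) and sesn1 (0.41 and -0.34).

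Lower at 7 dpa and higher in sham hearts were cd83 (-2.17 and 0.95), fgf1a (-1.36 and 0.98), mhc2dga (-1.13 and 5.88), cyp26b1 (-0.89 and 0.53), acads (-0.87 and 0.40), hexb (-0.63 and 0.46), mhc2dhb (-0.55 and 6.89), COX5B (ENSDARG00000015978; -0.55 and 1.22), atp6v0b (-0.43 and 0.68), atp6v0d1 (-0.40 and 0.37), HMOX1 (-0.38 and 0.66) and lasp1 (-0.33 and 0.23). The MHC genes among these belong to families with near-identical copies.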

How the results depend on the processing

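The fall of mvp kept its direction and its call under every alternative run. The number of genes called did not keep its size. From the 6 libraries it was 1376 (692 higher and 684 lower), with all 12 libraries in 1 fit it was 3156 (1469 and 1687), by DESeq2's Wald test 2112 (1168 lower), and with a log2 fold change of 1 or more in size it was 559 (231 and 328). With the replicate number as a replicate block it was 582 (305 and 277), although the numbers do not pair the samples. Leaving out 1 library gave 200 to 6530 genes, with 135 to 2973 higher and 65 to 3557 lower: 6530 without WT-7dpa replicate 1, 540 and 469 without WT-7dpa replicates 2 and 3, and 200, 234 and 211 without mvp-7dpa replicates 1, 2 and 3. These fits have fewer libraries. The biological coefficient of variation of WT-7dpa was 26.4% with replicate 1 and 3.33% without it. The cause of the larger number without replicate 1 was not tested. Of the same 181 called genes, 181 kept the call without WT-7dpa replicate 1, 114 with the block and 50 to 55 without any one mvp-7dpa library. None of them turned its direction.

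The wild-type libraries agreed on 19 lists, and on 15 to 39 with 1 library left out, the highest without WT-7dpa replicate 1. With a wild-type library left out fewer medians have to agree, so the rule is easier to meet. Without replicate 1 it rests on replicates 2 and 3, which were close to each other, so the 39 cannot be set against the 19. For settings that change only the test the number of lists with agreement could not be recomputed. With 1 library left out, the liver median ranged between -0.10 (without mvp-7dpa replicate 2) and 0.25, being -0.03 without WT-7dpa replicate 3, and the log2 fold change of chd5 ranged between -1.43 and 0.94 (without WT-7dpa replicate 1). At the depth of these libraries 3 counts stand for 0.113 to 0.140 CPM, so that differences among genes near that level were not detectable.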
